A study of Mus musculus with 10 samples.

Results

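Adipocyte progenitors are recognised in fat by proteins on their surface, and 10 genes that encode such proteins are described here: Pdgfra, Pdgfrb, Ly6a, Cd34, Dpp4, Pi16, Cd55, F3, Icam1 and Fap. They were taken by symbol from a table of 56691 genes, and each symbol matched a single entry. All 10 passed the filter on low counts and were among the 16591 genes tested. The libraries were made from poly(A) RNA of visceral fat, 1 library per mouse, from 5 mice labelled aADM2-tg and 5 labelled WT (wild type). All mice were male, 10 weeks old, and had received chow for 8 weeks. The sources used here name neither the promoter of the transgene nor the tissue in which it is active. The labels give mature adipocyte as the cell type, and transcripts of vessel, immune and stromal cells were counted in every library beside those of adipocytes.

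New fat cells form from mesenchymal progenitors that lie along vessels and in the connective tissue between the lobules. In mouse fat, cells carrying DPP4 and PI16 are known as an early interstitial pool, from which ICAM1-bearing committed preadipocytes and CD142-bearing stromal cells (CD142 is the protein of F3) can arise. PDGFRA, PDGFRB, Sca-1 (the protein of Ly6a) and CD34 are used to sort progenitors as a whole. Several of these proteins also mark other cells, since CD34, Sca-1 and ICAM1 are found on endothelium and PDGFRB on pericytes.

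The libraries held 16030435 to 18214504 counted reads, so that 3 counts, taken as the detection floor, equalled 0.165 to 0.187 CPM (counts per 1e+06 counted reads). The deposited table has a pair of header lines that disagree. In the upper line, the columns labelled aADM2-tg carry names of vehicle or control and those labelled WT carry names that start with ADM, whereas the lower line matches the sample labels. Adm2, the gene after which the transgene is named, had 0 counts in 9 libraries and 2 counts in WT3, under the floor, and could not settle the conflict. Groups are therefore those of the labels, and every direction given is that of the libraries labelled aADM2-tg (tg1 to tg5) against the libraries labelled WT (WT1 to WT5). Another difference among libraries largely followed the labels, with tg2 and WT1 as the exceptions, and is thus partly confounded with them. The summed level of 22 duct and ciliated epithelium markers was 443 CPM in tg2 and 5.34 to 12.8 CPM in the other aADM2-tg libraries, against 125 to 320 CPM in 4 WT libraries (WT2 to WT5) and 5.48 CPM in WT1. The members are therefore given also with a term for this duct signal, within the libraries low or high in it, and without tg2 and WT1. The last of these fits leaves the duct signal fully confounded with the labels and cannot separate them.

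Of the 10 markers, 3 rose in the libraries labelled aADM2-tg (Ly6a, F3 and Icam1) and 5 fell (Pdgfra, Cd34, Pi16, Cd55 and Fap), while Pdgfrb and Dpp4 were lower without passing the test. The test was edgeR's quasi-likelihood test with Benjamini-Hochberg adjustment over all 16591 genes, and a gene was called at an adjusted p under 0.05. By the same test, 13.8% of all tested genes were called higher, 12.7% lower and 26.5% in either direction. The median log2 fold change was -0.52 over the markers and 0.02 over all tested genes. The CPM of the groups did not overlap for 8 markers, 2 of them higher and 6 lower in aADM2-tg, against 17.1% of all tested genes in either direction, 7.33% higher and 9.75% lower. In bulk tissue, fewer cells of a type and less RNA per cell cannot be told apart.

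**Figure D1:**
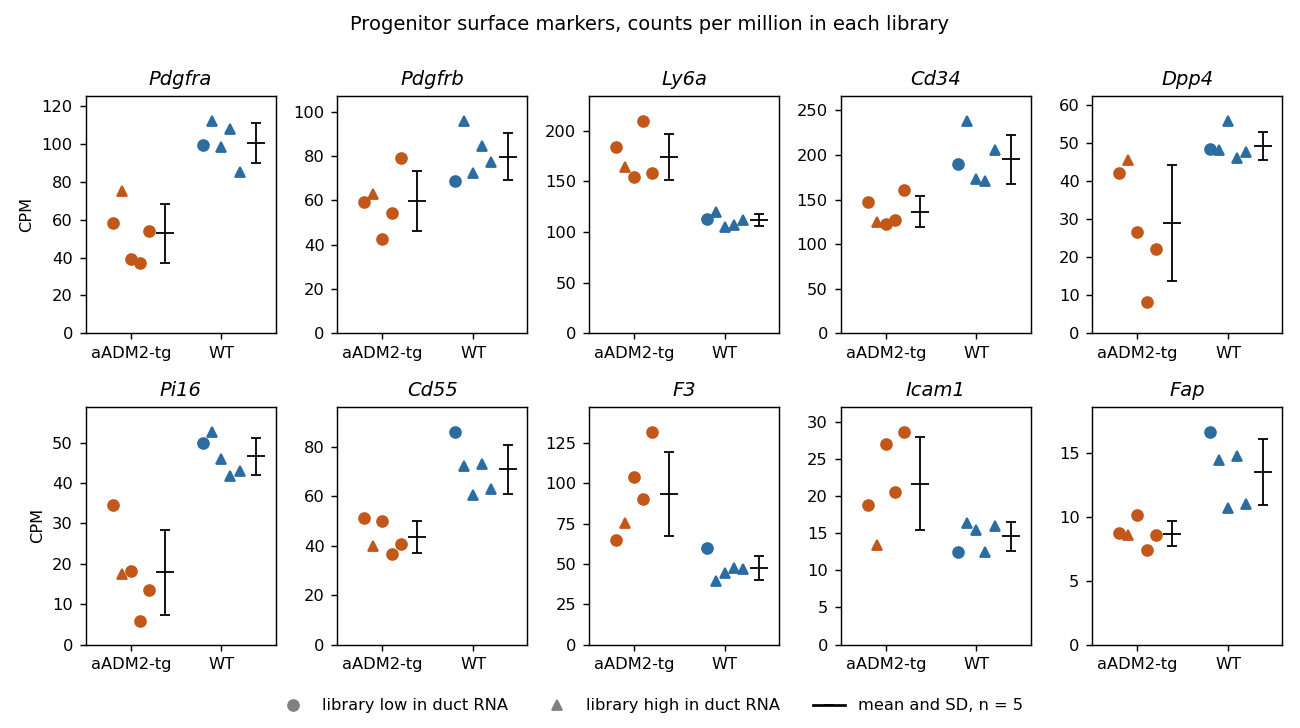
CPM of each of the 10 markers, 1 panel per gene, with 1 point per library (triangles for libraries high in duct RNA), aADM2-tg left of WT, and the group mean with its SD. The groups stand apart without overlap in every panel other than those of Pdgfrb and Icam1.

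Upstream sequence was compared for the markers that moved in opposite directions. RefSeq promoter entries (GRCm38.p6) were matched by symbol for 7 of the 10 markers, Pdgfra, Cd34, Dpp4, Pi16, Cd55, F3 and Icam1. The 250 bases before the start site are shown for F3 and Icam1, the called members with an entry that were higher, and for Pdgfra and Pi16, the called members with an entry that fell most. Capitals mark matches on either strand to TGANTCA, the AP-1 motif, or to GGNNNTTCC, an NF-kappa-B-like motif, where N is any base.
F3: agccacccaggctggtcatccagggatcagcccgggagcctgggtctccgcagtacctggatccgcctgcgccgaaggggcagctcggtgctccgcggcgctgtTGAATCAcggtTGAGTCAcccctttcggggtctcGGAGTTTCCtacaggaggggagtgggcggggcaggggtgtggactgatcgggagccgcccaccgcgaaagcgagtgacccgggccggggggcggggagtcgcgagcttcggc
Icam1: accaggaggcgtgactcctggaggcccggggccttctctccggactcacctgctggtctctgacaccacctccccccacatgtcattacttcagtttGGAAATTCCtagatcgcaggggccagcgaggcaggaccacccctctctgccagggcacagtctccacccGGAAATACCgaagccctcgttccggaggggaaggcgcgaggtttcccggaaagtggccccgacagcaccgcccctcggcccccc
Pdgfra: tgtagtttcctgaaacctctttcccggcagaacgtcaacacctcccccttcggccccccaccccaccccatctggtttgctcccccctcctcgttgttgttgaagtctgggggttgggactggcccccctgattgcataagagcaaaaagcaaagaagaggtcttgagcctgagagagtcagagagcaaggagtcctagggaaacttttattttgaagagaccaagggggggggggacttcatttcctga
Pi16: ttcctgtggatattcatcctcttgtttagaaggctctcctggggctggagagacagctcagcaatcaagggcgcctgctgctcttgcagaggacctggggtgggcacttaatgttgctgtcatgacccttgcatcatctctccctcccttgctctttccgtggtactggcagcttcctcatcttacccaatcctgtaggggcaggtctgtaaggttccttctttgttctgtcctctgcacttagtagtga
These stretches lie at chr3:121723287-121723536 for F3, chr9:21015690-21015939 for Icam1, chr5:75152001-75152250 for Pdgfra and chr17:29318632-29318881 for Pi16, each on the plus strand. The F3 stretch held AP-1 matches starting 146 and 135 bases before the start site and an NF-kappa-B-like match 112 bases before it. The Icam1 stretch held NF-kappa-B-like matches at 153 and 84 bases before the start site and no AP-1 match. Neither motif was found in the stretches of Pdgfra, Pi16, Cd34 or Dpp4, and that of Cd55 held 1 NF-kappa-B-like match, GGAACGCCC. Of 32851 RefSeq promoter stretches searched in the same way, 6.75% held the AP-1 motif and 15.7% the NF-kappa-B-like motif. The GC box, GGGCGG, which does not overlap these matches, was found 3 times in F3, 2 times in Cd55 and 1 time in Icam1, and in 32.7% of all stretches. The letters TATAAA were found 1 time among the 7 markers, in Dpp4, and in 12.4% of all stretches. The motifs were chosen with these sequences in view, and a match describes letters only.

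Among the markers shared by progenitors as a whole, Pdgfra and Cd34 fell, Ly6a rose and Pdgfrb did not pass the test. Pdgfra (ENSMUSG00000029231), which encodes the alpha receptor used to define mesenchymal progenitors, was at 58.4, 75.2, 39.2, 37.3 and 54.0 CPM in tg1 to tg5, against 99.2, 112, 98.5, 108 and 85.0 CPM in WT1 to WT5. Every aADM2-tg library lay under every WT library, with tg2 the nearest and tg3 and tg4 the lowest. Pdgfra averaged 52.8 ± 15.5 CPM in aADM2-tg and 101 ± 10.46 CPM in WT (SD, n = 5 each), a log2 fold change of -0.88 (SE 0.15) with an adjusted p of 0.00372 by edgeR.

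Pdgfrb (ENSMUSG00000024620) encodes the beta receptor, which progenitors share with pericytes. It was at 59.4, 63.0, 42.4, 54.1 and 79.2 CPM in tg1 to tg5, against 68.8, 95.7, 72.4, 84.4 and 77.4 CPM in WT1 to WT5. The groups overlapped, because tg5 lay above 3 WT libraries. Its log2 fold change was -0.36 (SE 0.13, edgeR adjusted p 0.0619), and without tg5 the adjusted p was 0.0128. DESeq2, which called 13.8% of its genes lower, gave it an adjusted p of 0.0404. The 10 pericyte and smooth muscle markers held 1176 to 1525 CPM in aADM2-tg and 1189 to 1449 CPM in WT, and edgeR called none of them, with 1 at an unadjusted p under 0.05. With a term for the duct signal, 1 of them was called lower, against 8.58% of all tested genes.

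Ly6a (ENSMUSG00000075602) encodes Sca-1, a small membrane-anchored protein that marks mouse progenitors and many endothelial cells. It was at 184, 164, 154, 209 and 158 CPM in tg1 to tg5, against 113, 120, 105, 107 and 112 CPM in WT1 to WT5. All aADM2-tg libraries were above all WT libraries, with tg4 the highest. The log2 fold change was 0.71 (SE 0.094), with an edgeR adjusted p of 0.00129, the lowest among the 10 markers. In the transcripts of GENCODE M21, 19.0% of the 50-base words of Ly6a were shared with other genes, most with Ly6c1, so reads of these neighbours may be split. Ly6c1 itself rose, with 200 ± 34.4 CPM in aADM2-tg and 148 ± 9.59 CPM in WT (log2 0.49, edgeR adjusted p 0.00738), and the ratio of Ly6a to Ly6c1 overlapped between the groups.

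Cd34 (ENSMUSG00000016494), a sialomucin of progenitors and endothelium, was at 148, 125, 122, 128 and 161 CPM in tg1 to tg5, against 189, 238, 173, 171 and 205 CPM in WT1 to WT5. The groups did not overlap, although tg5 lay close to WT4. The log2 fold change was -0.45 (SE 0.11, edgeR adjusted p 0.0130). The ratio of Ly6a to Cd34 CPM was 0.982 to 1.64 in aADM2-tg and 0.505 to 0.626 in WT, and the ratio of Ly6a to Pdgfra was 2.18 to 5.62 in aADM2-tg and 0.990 to 1.32 in WT. Within every aADM2-tg library both ratios were above those of all WT libraries. This follows from the separate ranges of Ly6a, Cd34 and Pdgfra and adds no further result. Podxl, a sialomucin related to CD34, rose, with 133 ± 29.3 CPM in aADM2-tg and 69.2 ± 8.01 CPM in WT (log2 1.00, edgeR adjusted p 0.00221). Of 11 endothelial markers, 3 were called higher and 1 with the duct term, and their sum was 1254 to 1791 CPM in aADM2-tg and 1213 to 1610 CPM in WT. The part of endothelial RNA in the levels of Ly6a, Cd34 and Icam1 was not tested.

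Of the 3 markers of the interstitial pool, Pi16 and Cd55 fell, and Dpp4 was lower without passing the test; Dpp4 and Pi16 spread widely in aADM2-tg and Cd55 did not. Dpp4 (ENSMUSG00000035000), a membrane peptidase, was at 42.1, 45.4, 26.6, 8.24 and 22.0 CPM in tg1 to tg5, against 48.3, 48.2, 55.7, 46.0 and 47.5 CPM in WT1 to WT5. Every aADM2-tg library was under every WT library, but tg1 and tg2 came close to WT and tg4 was far below. The highest aADM2-tg level was 5.51 times the lowest, against 1.21 times in WT. The log2 fold change of -0.72 (SE 0.34) did not pass the test (edgeR adjusted p 0.135), and it did without tg2 (adjusted p 0.0496).

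Pi16 (ENSMUSG00000024011), which encodes a peptidase inhibitor of fibroblasts in the vessel adventitia, was at 34.6, 17.5, 18.2, 5.71 and 13.4 CPM in tg1 to tg5. It was at 49.8, 52.5, 46.0, 41.8 and 42.9 CPM in WT1 to WT5. The groups did not overlap, and tg4 was again the lowest and tg1 the highest of its group. With a log2 fold change of -1.32 (SE 0.35, edgeR adjusted p 0.0192), Pi16 had the largest fall among the 10 markers. Its spread in aADM2-tg (coefficient of variation 59.1%) and that of Dpp4 (52.7%) exceeded those in WT, 9.80% for Pi16 and 7.67% for Dpp4. The ratio of Pi16 to Dpp4 was 0.386 to 0.821 in aADM2-tg and 0.827 to 1.09 in WT, so that the groups stood apart by a narrow margin.

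Cd55 (ENSMUSG00000026399), a regulator that speeds the decay of complement convertases and marks interstitial progenitors, was at 51.2, 39.7, 49.9, 36.6 and 40.9 CPM in tg1 to tg5. It was at 85.9, 72.1, 60.5, 73.0 and 63.0 CPM in WT1 to WT5. No library of either group entered the range of the other. Its log2 fold change was -0.64 (SE 0.14, edgeR adjusted p 0.00976). A share of 8.00% of its 50-base words was found in other genes, most in Cd55b.

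The markers of the later populations, F3 and Icam1, were higher. F3 (ENSMUSG00000028128) encodes tissue factor, the starter of the extrinsic clotting pathway and the CD142 antigen of a stromal population. It was at 64.6, 75.5, 104, 90.4 and 132 CPM in tg1 to tg5, against 60.0, 39.5, 44.5, 47.2 and 46.6 CPM in WT1 to WT5. The groups did not overlap, with tg1 just above WT1, the highest WT library. F3 averaged 93.2 ± 26.1 CPM in aADM2-tg and 47.6 ± 7.58 CPM in WT (SD, n = 5 each), a log2 fold change of 1.03 (SE 0.20) with an edgeR adjusted p of 0.00565. Tfpi, which encodes the inhibitor of the tissue factor pathway, fell, with 52.1 ± 5.10 CPM in aADM2-tg and 75.8 ± 9.66 CPM in WT (log2 -0.48, edgeR adjusted p 0.00443). The ratio of F3 to Tfpi was 1.27 to 2.93 in aADM2-tg and 0.458 to 0.961 in WT. Both genes had separate ranges in opposite directions, so the separation of this ratio was already given by them. With an offset for gene length and GC content, Tfpi was at log2 -0.16 with an adjusted p of 0.179.

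Icam1 (ENSMUSG00000037405) encodes an adhesion protein for leukocyte integrins, present on committed preadipocytes and on activated endothelium. It was at 18.8, 13.4, 27.1, 20.5 and 28.6 CPM in tg1 to tg5, against 12.5, 16.4, 15.4, 12.5 and 16.01 CPM in WT1 to WT5. The groups overlapped through tg2 alone, which lay under 3 WT libraries, and the other 4 aADM2-tg libraries were above all WT libraries. The log2 fold change was 0.65 (SE 0.20, edgeR adjusted p 0.0365). This call was the least stable among the markers. It held in 2 of 10 fits that each left out 1 library, those without tg1 (adjusted p 0.0491) and without tg2 (0.00216). In the other 8 fits the adjusted p was 0.0580 to 0.0876. With a term for the duct signal, Icam1 was at log2 0.42 with an adjusted p of 0.238.

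Fap (ENSMUSG00000000392) encodes fibroblast activation protein, a peptidase closely related to DPP4, and lies near Dpp4 on the minus strand of chromosome 2. In the coordinates of the deposited table, 88711 bases separate the end of Dpp4 from the start of Fap, and genes between them were not examined. Fap had the lowest mean level of the 10 in each group, although Pi16 lay below it in tg4 and Icam1 in WT1 and WT4. It was at 8.76, 8.54, 10.1, 7.36 and 8.58 CPM in tg1 to tg5, against 16.6, 14.5, 10.7, 14.7 and 11.0 CPM in WT1 to WT5. The groups did not overlap, with tg3 just under WT3. The log2 fold change was -0.58 (SE 0.16, edgeR adjusted p 0.0237), and the adjusted p was 0.0540 without tg4 and 0.0551 without WT4. Fap and Dpp4 differed in spread, since Fap ranged over 1.37 times within aADM2-tg, where Dpp4 ranged over 5.51 times.

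**Figure D2:**
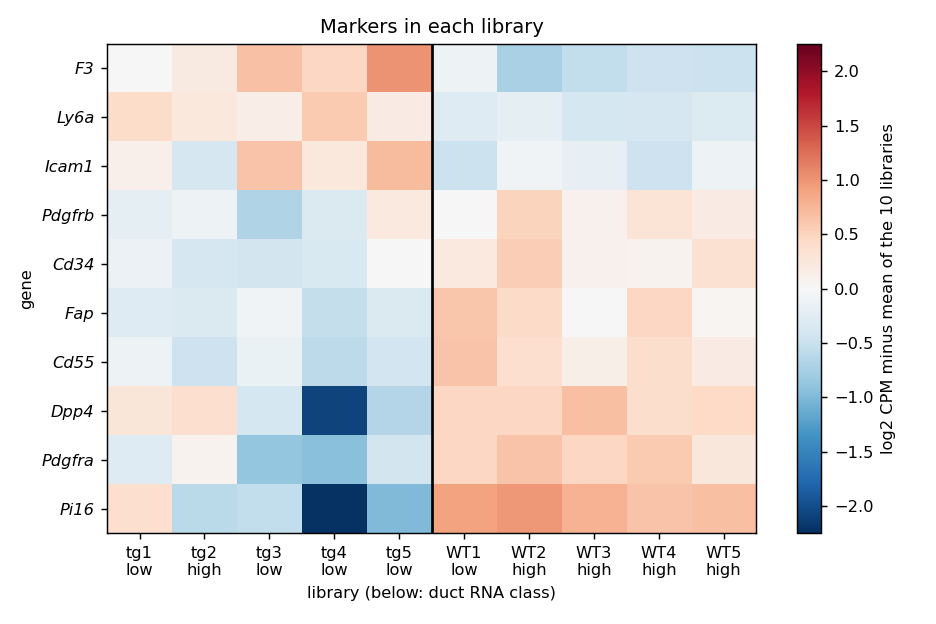
Difference of each library's log2 CPM from the mean over all 10 libraries, for the 10 markers (down the page) and the libraries tg1 to tg5 and WT1 to WT5 (across). Dpp4 and Pi16 stand lowest in tg4, and Icam1 in tg2 lies with the WT libraries.

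The heat map of deviations showed that libraries of a group did not shift all markers together. Library tg4 was the lowest of its group for Pdgfra, Dpp4, Pi16, Cd55 and Fap and the highest for Ly6a. Library tg5 was the highest of its group for Pdgfrb, Cd34, F3 and Icam1, and tg3 was the lowest for Pdgfrb, Ly6a and Cd34. Among WT libraries, WT2 was the highest for 6 markers. The spread relative to the mean was wider in aADM2-tg for 8 markers, Cd34 and Fap being the exceptions. The share of all tested genes with a wider spread in aADM2-tg is not given here, so the count is not particular to the markers. The ratio of F3 to Pdgfra was 1.00 to 1.11 in tg1 and tg2 and 2.43 to 2.64 in tg3 to tg5, against 0.353 to 0.605 in WT. F3 and Pdgfra each had separate ranges, in opposite directions, which fixed the separation of the groups in this ratio.

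Levels between genes were compared on the FPKM scale, which divides counts by exonic length. Ly6a had the highest level in both groups, at 144 ± 19.0 FPKM in aADM2-tg and 92.5 ± 4.93 FPKM in WT (SD, n = 5 each). In aADM2-tg it was followed by F3 at 36.9 ± 10.3 FPKM and Cd34 at 18.7 ± 2.31 FPKM, and the ranges of these 3 genes did not meet. In WT, Cd34 came next at 26.8 ± 3.79 FPKM and F3 after it at 18.8 ± 2.998 FPKM, with ranges that overlapped, as did those of F3 and Cd55. Further down the order in aADM2-tg came Pdgfrb at 10.9 FPKM, Cd55 at 8.996, Pdgfra at 5.27, Icam1 at 4.97, Dpp4 at 4.57, Pi16 at 2.81 and Fap at 1.53 FPKM. The ranges of neighbours in this stretch overlapped except between Cd55 and Pdgfra. In WT the same stretch ran from Cd55 and Pdgfrb, both at 14.6 FPKM, through Pdgfra at 10.0, Dpp4 at 7.78, Pi16 at 7.32 and Icam1 at 3.34 to Fap at 2.38 FPKM. There, neighbouring ranges were separate between Pdgfrb and Pdgfra and between Pi16 and Icam1. By mean level Icam1 stood above Dpp4 and Pi16 in aADM2-tg and under both in WT, and the ranges of these genes overlapped in aADM2-tg.

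**Figure D3:**
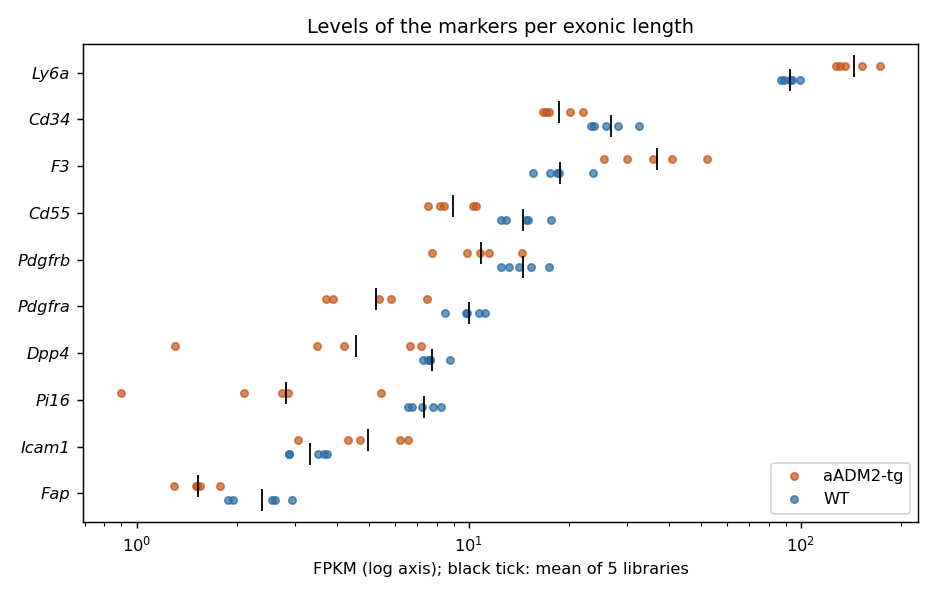
FPKM (horizontal log axis) of the 10 markers (down the page), 1 point per library, aADM2-tg above WT for every gene, with the group mean as a tick. Ly6a has the highest level in both groups, and the ranges of F3 and Cd34 overlap in WT and are separate in aADM2-tg.

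The duct signal, gene length and GC content touched some of the calls. With the duct score as a term in edgeR, 2 markers were called higher (Ly6a and F3) and 5 lower (Pdgfra, Cd34, Pi16, Cd55 and Fap), against 5.64% of all genes higher and 8.58% lower. Without tg2 and WT1, the 2 libraries that stood with the other group in this signal, 3 markers were called higher and 5 lower, against 19.2% and 21.7% of all genes. In that fit all 20 tested duct markers were called lower, so it cannot separate the duct signal from the labels. Within the libraries low in duct RNA, 4 aADM2-tg libraries against WT1, the log2 fold change kept its sign for all 10 markers. It was -1.12 for Pdgfra, 0.59 for Ly6a, -0.49 for Cd34, -1.51 for Pi16, -0.99 for Cd55, 0.65 for F3, 0.88 for Icam1 and -0.98 for Fap. Within the libraries high in it, tg2 against WT2 to WT5, it was -0.44 for Pdgfra, 0.55 for Ly6a, -0.67 for Cd34, -1.40 for Pi16, -0.77 for Cd55, 0.75 for F3 and -0.59 for Fap, and -0.19 for Icam1, which was thus the one marker to change sign. No marker passed edgeR's test within either class, where 1 group is a single library assumed to vary like the others, and 6 of the low class and 8 of the high class had an unadjusted p under 0.05, against 14.8% of all genes in the low class and 16.1% in the high class. After adjustment, in the low class 0.00574% of all genes were called higher and 0.195% lower, and in the high class 0.00521% higher and 0% lower.

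An offset for gene length and GC content shifted the median log2 fold change of all genes by 0.13. Under it 3 markers were called higher, against 16.7% of all genes, and 2 lower (Pdgfra and Pi16), against 5.29% of all genes. Cd34, Cd55 and Fap then had adjusted p values of 0.517, 0.0991 and 0.326, and relative to the shifted median of all genes they stood at log2 -0.28 for Cd34, -0.57 for Cd55 and -0.40 for Fap. With the offset and the duct term together, 2 markers were called higher and 3 lower, against 7.5% and 5.33% of all genes. The share of higher genes among all called genes was 75.9% with this offset and 52.0% without it. Pdgfra, Ly6a, Pi16 and F3 were called with the duct term, with the offset and in each of the 10 fits that left out 1 library.

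**Figure D4:**
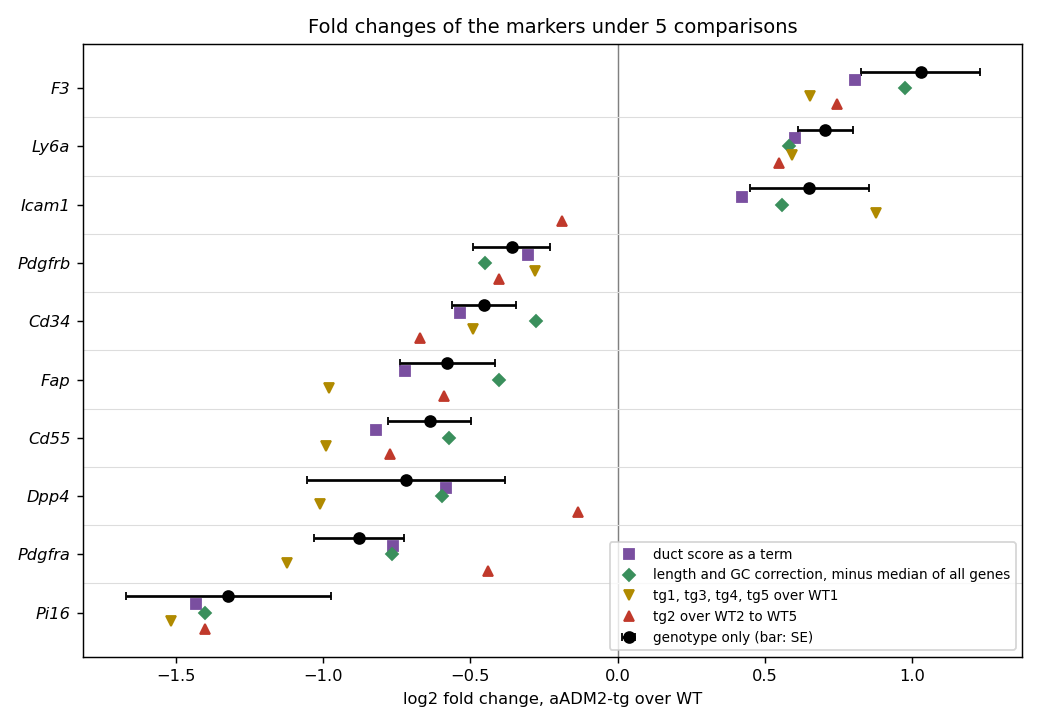
Log2 fold change of aADM2-tg over WT for each marker (down the page), with its SE in the model with genotype only (black), and the log2 fold change alone with the duct score as a term, with the length and GC offset less the median of all genes, among tg1, tg3, tg4, tg5 and WT1, and among tg2 and WT2 to WT5. Icam1 in tg2 against WT2 to WT5, at -0.19, is the one point on the other side of 0.

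Other genes known from the same progenitor populations moved in both directions. The counts of called genes in this and the following lists stand beside 13.8% of all tested genes called higher and 12.7% lower. With the duct term these shares were 5.64% and 8.58%. Of 15 genes found across adipose progenitors, 1 rose, 5 fell and 9 did not pass edgeR's test. Their median log2 fold change was -0.58, and -0.40 with the duct term. The sum of the 15 overlapped between groups, at 10995 to 12369 CPM in aADM2-tg and 10804 to 12732 CPM in WT. Eng rose (log2 0.74, edgeR adjusted p 0.00815), and Dcn (log2 0.02) and Gsn (0.11) did not pass. Lum, which encodes the matrix proteoglycan lumican, was at 63.2 ± 19.3 CPM in aADM2-tg and 180 ± 36.5 CPM in WT (log2 -1.45, edgeR adjusted p 0.00111). Serpinf1, Pcolce and Dpt, genes of secreted matrix-associated proteins, fell by 0.61, 0.95 and 0.59 on the log2 scale. Of 13 tested genes of the interstitial pool, 3 fell and 1 rose, with a median of -0.61, which was -0.15 with the duct term, where the same counts were called. Sema3c, a secreted semaphorin, was at 60.2 ± 11.8 CPM in aADM2-tg and 114 ± 6.54 CPM in WT (log2 -0.86, edgeR adjusted p 0.00181). Fbn1, which encodes the microfibril protein fibrillin-1, was at 129 ± 47.3 CPM in aADM2-tg and 359 ± 82.6 CPM in WT (log2 -1.43, edgeR adjusted p 0.00547). Loxl2, an enzyme that crosslinks collagen, fell by 0.98 on the log2 scale, whereas Anxa3, an annexin, rose by 0.67.

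Of 16 genes of the committed preadipocyte, 4 rose, 3 fell and 9 did not pass, with a median log2 fold change of 0.03. Cebpd, a transcription factor of early adipogenesis, was at 34.0 ± 14.1 CPM in aADM2-tg and 12.03 ± 3.09 CPM in WT (log2 1.57, edgeR adjusted p 0.00426). Its partner Cebpb rose by 0.94 on the log2 scale and the lipid carrier gene Fabp4 by 0.50, while Pparg, the receptor that drives adipocyte differentiation, was at -0.10 with an adjusted p of 0.578. With the duct term 2 genes of this list were called higher, and Cebpb (log2 0.66, adjusted p 0.128) and Fabp4 (0.27, adjusted p 0.179) were not among them. Col4a1 and Col4a2, the basement membrane collagen chains, fell by 0.76 and 0.70. Of 9 genes of the F3-bearing population other than F3, 2 rose and 2 fell, with a median log2 fold change of -0.40. With the duct term the median was -0.15, and edgeR called none of the 9, with 2 at an unadjusted p under 0.05. Mgp, an inhibitor of calcification, was at 34.7 ± 12.9 CPM in aADM2-tg and 71.2 ± 31.5 CPM in WT (log2 -0.97, edgeR adjusted p 0.0397). Rtp3 was at 8.93 ± 2.61 CPM in aADM2-tg and 5.03 ± 1.05 CPM in WT (log2 0.89, edgeR adjusted p 0.0197). The call of Mgp was lost without any 1 of 7 libraries, tg1, tg3, tg4, tg5, WT2, WT3 and WT5 (adjusted p 0.0718 to 0.101), and that of Rtp3 without WT2 (adjusted p 0.0513).

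Among the ligands of the platelet-derived growth factor receptors, Pdgfb rose and Pdgfa, Pdgfc and Pdgfd did not pass the test. Pdgfb, which is made by endothelial cells among others and binds both receptors, was at 59.0 ± 12.8 CPM in aADM2-tg and 35.7 ± 2.92 CPM in WT (log2 0.79, edgeR adjusted p 0.00373). Pdgfrl, a gene named for its likeness to these receptors, was at 1.16 ± 0.33 CPM in aADM2-tg and 6.72 ± 3.36 CPM in WT (log2 -2.46, edgeR adjusted p 0.00126). Of 24 tested binding partners and relatives of the other markers, 4 rose, 4 fell and 16 did not pass, with a median of 0.15. Vcam1, an adhesion protein of the same superfamily as ICAM1, rose by 0.57 on the log2 scale (edgeR adjusted p 0.0161), while Itgam, which encodes a subunit of an integrin that binds ICAM1, fell by 0.39 (edgeR adjusted p 0.0382). The call of Itgam was lost with the duct term (adjusted p 0.0639) and with the length and GC offset (adjusted p 0.209), and the genes of this list called lower then numbered 1 with the term and 0 with the offset, where edgeR found 0 lower genes at an unadjusted p under 0.05 and called 6 of the list higher.

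**Figure D5:**
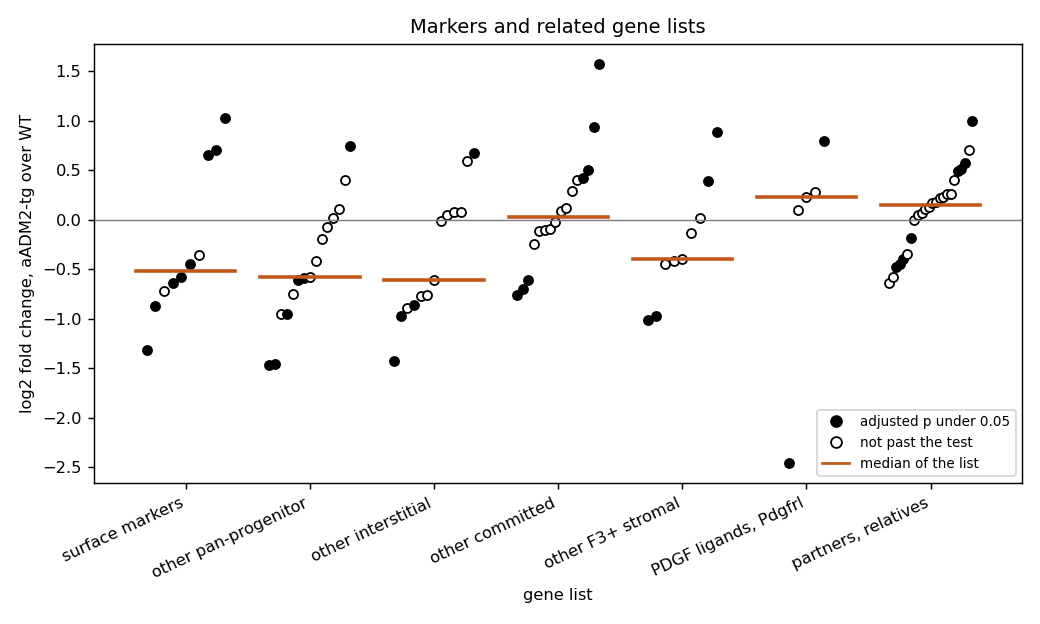
Log2 fold change of aADM2-tg over WT (vertical axis) for every tested gene of the markers and of 6 related lists (across), with called genes filled and the median of each list as a line. The medians of the pan-progenitor and interstitial lists lie at -0.58 and -0.61 in the model with genotype only, and that of the committed preadipocyte list at 0.03.

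Markers of other cells moved beside these genes. The sum of 10 mature adipocyte markers was 18552 to 23960 CPM in aADM2-tg and 14880 to 18451 CPM in WT, with 6 called higher by edgeR and no overlap of the sums between the groups. With the duct term 2 of them were called and the median log2 fold change was 0.23 in place of 0.43, and 2 were called with the length and GC offset. The sum of 9 macrophage markers was 626 to 1073 CPM in aADM2-tg and 1158 to 1359 CPM in WT, with 3 called lower. Its lowest library was tg4, the same in which Pdgfra, Dpp4, Pi16, Cd55 and Fap were lowest. The 8 mesothelial markers held 107 to 356 CPM in aADM2-tg and 140 to 312 CPM in WT, and edgeR called none, with 1 at an unadjusted p under 0.05. The 8 lymphocyte markers held 31.9 to 60.0 CPM in aADM2-tg and 52.1 to 60.7 CPM in WT, with 2 of 7 tested called higher and 1 lower. The 2 called higher had a mean under 1 CPM, and the 1 called lower was Ptprc. The 10 male germ cell markers held 2.82 to 16.9 CPM in aADM2-tg and 5.26 to 239 CPM in WT, and all 5 that could be tested were called lower. Among WT libraries this sum was 231, 202 and 239 CPM in WT2, WT3 and WT5. It was 5.26 CPM in WT1 and 14.7 CPM in WT4, within the range of aADM2-tg. No list had a marker at 0 in all libraries. The part of these cells in the marker results was not tested.

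The genes whose log2 CPM followed each marker most closely were named from all tested genes with a mean of at least 10 CPM, by Pearson's r over the 10 libraries. The libraries share a genotype difference and the duct signal, so these values describe likeness only. For Pdgfra they were Fyco1 (r = 0.99) and Man1a (0.98), for Pdgfrb Bcor (0.98) and Ttyh3 (0.97), for Ly6a Gstt2 (0.98) and Abcb1b (0.97), and for Cd34 Arpc1b (0.95) and Col4a1 (0.94). For Dpp4 they were Ildr2 (0.98) and Cxadr (0.97), for Pi16 Sfrp2 (0.98) and Sulf1 (0.97), and for Cd55 Pdha1 (0.97) and Dnaaf9 (0.96). By ranks, Spearman's rho of Dpp4 was 0.67 with Ildr2, the lowest of the pairs named here, and 0.99 with Cxadr. For F3 they were Pak1ip1 (0.96) and Noct (0.96), for Icam1 Stn1 (0.96) and Csrp1 (0.94), and for Fap Fam114a1 (0.97) and Cd55 (0.96). Fap and Cd55 were thus the one pair among the markers in which a marker was among the closest of all genes to another.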

How the data were processed

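Poly(A) RNA of visceral fat from 10 mice was sequenced. HTSeq 0.6.1 and HISAT2 2.2.1 are the tools named, per the submitters' processing notes; annotation, strand setting and build are not given in the sources used, and coordinates printed for the members other than promoters are those of the deposited table. The values used are raw read counts per gene, as deposited, 1 column per library. The authors' deposited FPKM values divide counts by exonic length and by counted reads; recomputed FPKM matched within 0.01 for 56691 genes in 6 of 7 libraries and 56661 in WT3, and the recomputed values are printed. The column names of tg3, tg4 and tg5 fit several samples, so their counts were assigned to the group only, with the numbers of the columns, and their 3 FPKM columns were not used.

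Genes passing filterByExpr were tested with edgeR 4.0.16 (R 4.3.3), TMM scaling, glmQLFit and glmQLFTest with genotype as the term, and Benjamini-Hochberg adjustment; the SE is the log2 fold change over the root of F. The labels give separate mice. Alternatives were DESeq2 1.42.0, other scaling and filters, leaving out each library, a replicate block, the duct score (mean log2 CPM, prior count 2, of 22 duct genes) as a term, loess offsets for length and GC (span 0.3, GC known for 98.5% of tested genes), and their combination, which was added after seeing the data. The model was tested on simulated counts with the same dispersion for all genes and no duct, length or GC effect, so the test does not cover these. Printed list genes are at most 4 called per list by adjusted p with a mean of at least 1 CPM. Eng, Dcn, Gsn, Cebpb, Fabp4, Pparg, Itgam and the PDGF ligands without a call were named after their values were seen. Members and lists were chosen with earlier results of these data known. Shared words of 50 bases were counted in GENCODE M21 transcripts. Intervals are not given for counts, and the detection floor reflects counting error alone.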

Additional observations from a re-analysis of the deposited data

Results flagged for a closer look

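Groups of 5 libraries were examined for a library far from the other 4, by Dixon's test at its 95% critical value, for 32 genes, and 5 of 64 groups held one. Chance gives about 5% of groups. Among the members, Dpp4 in WT3 was at 55.7 CPM, above the other WT libraries at 46.0 to 48.3 CPM. Among the other genes, Lum in tg2 was at 97.0 CPM, above the other aADM2-tg libraries at 50.8 to 61.2 CPM, and tg2 is the library of that group with the high duct signal. Cebpd in WT4 was at 17.4 CPM, above the other WT libraries at 9.63 to 11.3 CPM. Pdgfrl in WT2 was at 12.5 CPM, above the other WT libraries at 4.21 to 6.49 CPM. Ly6c1 in WT1 was at 132 CPM, below the other WT libraries at 149 to 155 CPM.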

How the results depend on the processing

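Each member had 10 fits that left out 1 library and 11 other alternatives. Direction and side of the threshold were kept in 88 of 100 such fits over the members, 10 calls were lost and 2 gained, and in 83 of 110 other fits, in which 23 calls were lost, 3 gained and 1 direction reversed. The reversal was Icam1 at -0.19 among the libraries high in duct RNA. Over all tested genes, leaving out 1 library gave 1370 to 3050 higher and 1609 to 3629 lower genes, the higher count being 1370 when WT2 was left out, 1505 for WT3, 1518 for WT4 and 1515 for WT5, and the lower count 3629 when tg2 was left out. Among the members it gave 2 to 3 higher and 4 to 6 lower. With the duct term 936 genes were higher. Among the libraries low in duct RNA edgeR called 1 gene higher and 34 lower, with 0 members higher and 0 lower (865 and 1707 genes, and 2 and 4 members, at an unadjusted p under 0.05). Among the libraries high in it, 1 gene was higher and 0 lower (1261 and 1832 unadjusted), with 0 members higher and 0 lower (2 and 6 unadjusted). In both classes 1 group is a single library. Without WT1 and tg2, 3622 genes were lower. The length and GC offset gave 865 lower genes and 2 lower members, and together with the duct term 1226 higher genes, 871 lower genes and 3 lower members. Some of these fits also held fewer libraries, and the cause of the changes was not tested.

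With a replicate block by the numbers of the column names, 1853 genes were higher and 2114 lower, and 3 members higher and 5 lower, with Pdgfrb called (adjusted p 0.0418) and Fap not (0.0535). Deviations of same-numbered libraries correlated at 0.485, 0.674, -0.385, -0.255 and 0.0398 for numbers 1 to 5, and not every library correlated best with its own number. The duct signal of tg2 and WT1 enters these deviations, and the column names of tg3, tg4 and tg5 fit several samples. The values therefore cannot decide whether the numbers pair the mice. The lowest count of any member was 104, for Pi16 in tg4, against the floor of 3 counts.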
